A study of Rattus norvegicus with 6 samples.

Results

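The genes described here are 9 interferon response genes of the rat: the transcription factor subunits Stat2 and Irf9, the type I interferon targets Irf7, Mx1, Mx2, Isg15, Oas1a and Ifit3, and Irf1, a primary target of interferon-gamma. They were listed by name, with earlier results of these data known, and matched through the accession that the array gives each probe. All 9 were among the 12418 named genes of the deposited expression table, where they were read by 10 of its 23997 probes. Irf1 had a pair of probes and each of the others had 1.

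Colon RNA was read on 1 single-color Agilent array per rat, for 3 rats of the S.LEW congenic strain (here C1 to C3) and 3 of the S strain (S1 to S3). S is the inbred Dahl salt-sensitive rat, and the congenic strain, S.LEW(10)x12x2x3x5, carries a short segment of chromosome 10 from the Lewis (LEW) rat on the S background. All 6 rats were males that received azoxymethane (AOM), a colon carcinogen, at 15 mg/kg in 2 weekly injections from 6 weeks of age, ate a 0.3% NaCl diet, and were 30 weeks old at harvest. The comparison asked which genes differ in expression between the colons of the congenic and S rats. There was no group without AOM, the congenic strain is a single line, and the RNA came from colon tissue with all its cell types. By the paper, each cage held 1 S and 1 congenic rat after the injections, and which arrays shared a cage is not given.

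Type I interferons (interferon-alpha and -beta) signal through the receptor chains Ifnar1 and Ifnar2 and the kinases Jak1 and Tyk2. STAT2, once phosphorylated, acts with IRF9 in the complex ISGF3, which binds the interferon-stimulated response element (ISRE) in the promoters of antiviral genes such as Mx1, Isg15 and the Ifit and Oas families. Interferon-gamma, made mainly by T cells and NK cells, signals through Ifngr1 and Ifngr2 with Jak1 and Jak2, and acts on the gamma-activated site (GAS) of genes such as Irf1, Ciita and the guanylate-binding proteins. Many target genes answer both kinds of interferon, and in the colon interferons act on epithelium and on resident immune cells alike.

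Promoter windows, from 250 bases before to 50 bases after a RefSeq gene start on the assembly GRCr8, were found for 7 of the 9 genes, all but Mx2 and Isg15. They were searched on both strands for the ISRE letters, TTTC and TTTC with 2 free bases between them, and the GAS letters, TTC and GAA with 3 free bases between them. An ISRE match was present in 3 of the 7 windows (Irf7, Oas1a and Ifit3), against 3.92% of all 33469 rat promoter windows. A GAS match was present in 3 of the 7 (Irf9, Oas1a and Irf1), against 8.87% of all windows. The windows of Stat2 and Mx1 held neither set of letters. Oas1a held both, so that the letters did not sort the genes cleanly. The bases around the matches are shown 5′ to 3′ on the strand of the gene, with the matched letters in capitals. Each is 30 bases long except the whole 250-base upstream stretches of Ifit3 and Irf1, which lie outside the annotated genes.
Ifit3, ISRE, chr1:241527076-241527325, plus strand: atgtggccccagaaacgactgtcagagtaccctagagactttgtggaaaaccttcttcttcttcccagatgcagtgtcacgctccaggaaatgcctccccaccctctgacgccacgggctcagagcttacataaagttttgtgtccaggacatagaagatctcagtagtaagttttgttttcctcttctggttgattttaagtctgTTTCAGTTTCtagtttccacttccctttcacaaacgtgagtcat
Irf7, ISRE, chr1:205800073-205800102, minus strand: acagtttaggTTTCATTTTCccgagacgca
Oas1a, ISRE (read from the opposite strand), chr12:41330415-41330444, plus strand: cccctctcggGAAATGGAAActgaaaatct
Oas1a, GAS, chr12:41330257-41330286, plus strand: gtaacagcttTTCCCAGAAgaatctctgag
Irf9, GAS, chr15:33065727-33065756, plus strand: accacgtgatTTCTAGGAActgcacctccc
Irf1, GAS, chr10:38417685-38417934, plus strand: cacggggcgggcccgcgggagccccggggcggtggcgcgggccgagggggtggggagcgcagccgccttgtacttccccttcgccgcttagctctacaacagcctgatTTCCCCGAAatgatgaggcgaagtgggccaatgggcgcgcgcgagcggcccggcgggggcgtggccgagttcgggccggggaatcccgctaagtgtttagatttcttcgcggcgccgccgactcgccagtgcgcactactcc

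The ISRE match of Ifit3 began 44 bases and that of Irf7 69 bases before the gene start. In Oas1a a second ISRE match overlapped the first, their left ends lying 41 and 35 bases before the start, and its GAS match began 199 bases before the start. The GAS match of Irf9 began 99 bases and that of Irf1 142 bases before the start. The annotated genes Irf7, Irf9, Stat2, Mx1 and Oas1a extend upstream of the starts used here, so that their windows overlap other transcripts of the same gene. The ISRE matches of Oas1a lie inside the annotated gene. A match is a run of letters and not a measured binding site.

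Expression values are the deposited log2 signals, which the authors quantile-normalized between arrays, and a difference of 1 on this scale is a 2-fold change. Strains were compared by limma over all 23997 probes, as congenic minus S, with Benjamini-Hochberg adjusted p-values over all of them. A gene is called changed here when its unadjusted p is under 0.05 and its strain means differ by at least 2-fold, the cut-offs of the study's methods. By that rule 3.23% of all probes were higher and 2.34% were lower in the congenic strain, while at an adjusted p under 0.05 the shares were 0.00% in both directions, with 13.0% of probes at an unadjusted p under 0.05 and none called by the methods' t-test after adjustment either.

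The S2 array stood apart from the other S arrays over all probes. Its correlation with S1 was 0.900 and with S3 0.937, while with the 3 congenic arrays it was 0.967 to 0.976. S1 and S3 correlated with each other at 0.980. The share of spots well above background ran from 73.8% to 87.6%, and the median raw intensity was 594 in S1 and 445 in S3 against 214 to 291 in the other 4 rats. Why S2 resembled the congenic arrays cannot be told from the files, and its label and the tissue sampled were not tested, so that both the S means and the values without S2 depend on it. The counts and the genes described in most detail are therefore given with and without S2. Without S2, 9.99% of all probes were called higher and 7.19% lower, and 12.5% were higher and 10.6% lower at an adjusted p under 0.05. S2 was set aside because of its own values on these arrays. Leaving out the S array nearest the congenic arrays by itself favours small p-values. All p-values and counts without S2 therefore describe S1 and S3 beside the congenic rats and are no valid test of the strains.

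None of the 9 interferon response genes was called changed between the strains, at either threshold, with all 6 rats, by limma or by the methods' t-test, and none had an unadjusted limma p under 0.05. The ranges of the strains overlapped for all 9, whereas 17.7% of all probes had strains that did not overlap, 12.4% with the congenic rats higher and 5.33% with them lower. The 9 fell into sets with different spreads. Stat2, Irf9, Irf7, Mx1 and, on its brighter probe, Irf1 were nearly level among the congenic rats and high in S1 and S3, with S2 at or near the level of the congenic rats. Mx2, Isg15, Oas1a and Ifit3 lacked that step. These sets were described after the values were seen. Without S2, 5 of the 9 genes were lower in the congenic rats at an adjusted p under 0.05, and they were the 5 with the step, which follows from how the sets were formed. Every one of the 10 probes was well above background on all 6 arrays. T cell markers had the same step, the 6 tested T cell markers at a mean level, relative to the 6 rats, of 2.13 and 2.23 log2 units in S1 and S3 and between -0.93 and -1.29 in the other 4. In RNA from whole tissue, fewer cells of a type and less RNA per cell cannot be told apart, and the part of these cells in the values of the 9 genes was not tested.

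**Figure D1:**
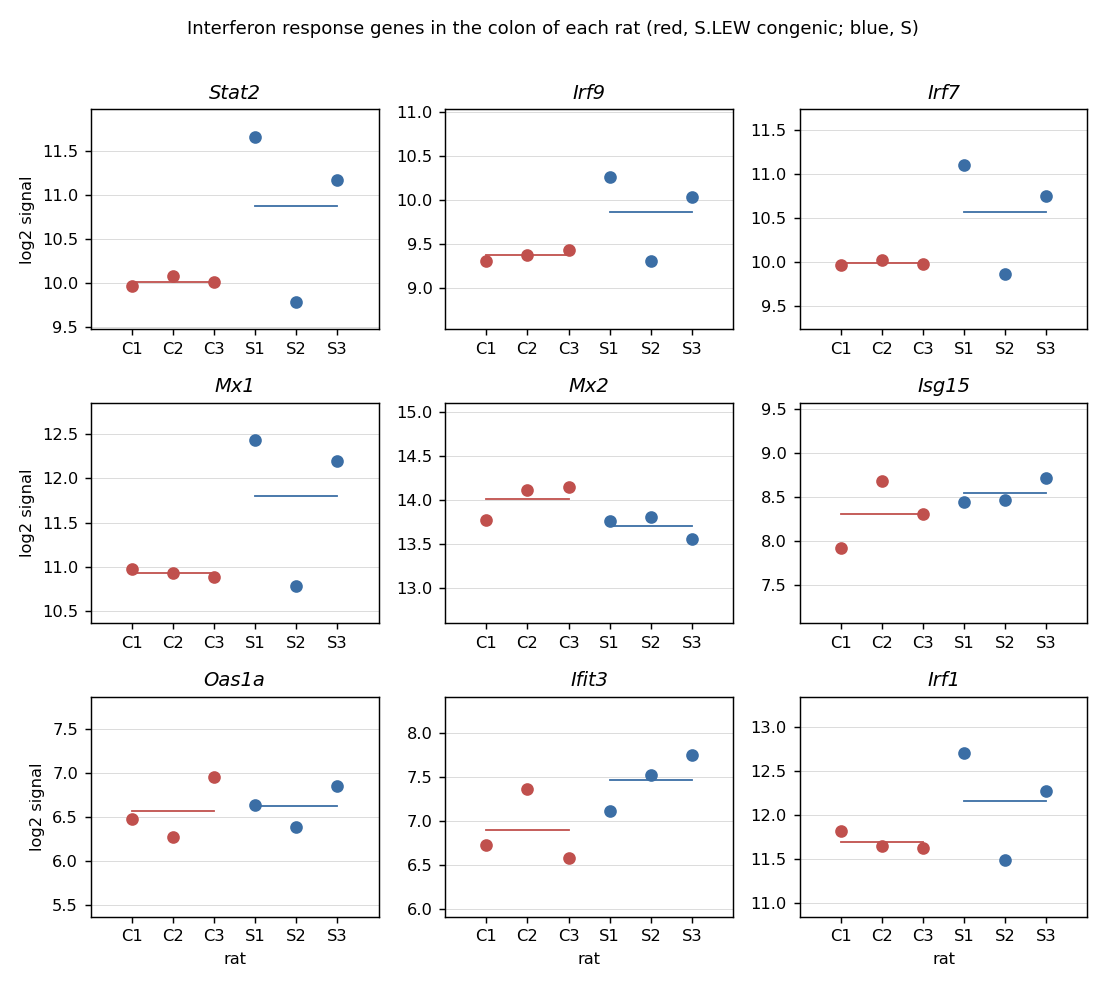
Log2 signal (vertical axis, deposited quantile-normalized values) of each of the 9 genes in each rat (horizontal axis), with S.LEW congenic rats in red and S rats in blue. Each point is 1 rat, horizontal lines are strain means, and all panels span the same 2.5 log2 units. In Stat2, Irf9, Irf7, Mx1 and Irf1 the rats S1 and S3 lie above the other 4, and in the other 4 genes they do not.

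Stat2 and Irf9 encode the STAT and the DNA-binding IRF subunit that are particular to ISGF3. The log2 signal of Stat2 was 9.97, 10.08 and 10.01 in C1, C2 and C3, and 11.66, 9.79 and 11.18 in S1, S2 and S3. S1 and S3 were the highest and S2 was the lowest of the 6 rats. The congenic rats averaged 10.02 ± 0.06 (SD, n = 3) and the S rats 10.88 ± 0.97. The log2 fold change of Stat2 was -0.86 ± 0.47 (SE; limma adjusted p = 0.450; exact two-sided permutation p = 0.4, where the smallest possible is 0.10 for 3 against 3 rats). For the other 8 genes the exact permutation p lay between 0.2 and 0.8. Without S2 it was -1.40 ± 0.19 (limma adjusted p = 0.0125), or 2.64-fold lower in the congenic rats, and Stat2 passed the 2-fold rule.

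The log2 signal of Irf9 was 9.30, 9.38 and 9.43 in the congenic rats against 10.26, 9.31 and 10.03 in S1, S2 and S3. S2 lay within the congenic range. The log2 fold change was -0.50 ± 0.27 (SE, limma adjusted p = 0.452) and, without S2, -0.77 ± 0.15 (limma adjusted p = 0.0263). Irf9 thus had S1 and S3 highest, as in Stat2, with a smaller step.

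Irf7 is the factor that amplifies interferon-alpha production once a first wave of interferon has induced it. Its log2 signal was 9.96, 10.02 and 9.98 in C1, C2 and C3, and 11.10, 9.86 and 10.75 in S1, S2 and S3. The congenic rats spanned 0.07 log2 units, the smallest range of the 9 genes, and the S rats 1.24. The log2 fold change was -0.58 ± 0.33 (SE, limma adjusted p = 0.459) with all rats and -0.94 ± 0.17 (limma adjusted p = 0.0212) without S2.

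Mx1 and Mx2 encode dynamin-like GTPases that act against viruses. Mx1 was at a log2 signal of 10.97, 10.92 and 10.88 in the congenic rats and at 12.43, 10.78 and 12.19 in S1, S2 and S3, so that S1 and S3 stood above and S2 below the congenic rats. The strain means of Mx1 were 10.93 ± 0.04 (SD, n = 3) and 11.80 ± 0.89, and its log2 fold change of -0.88 ± 0.44 (SE, limma adjusted p = 0.421) was the largest of the 9 in size. Without S2 it was -1.39 ± 0.15 (limma adjusted p = 0.00758), 2.62-fold lower, and past the 2-fold rule together with Stat2 only.

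Mx2 did not follow Mx1. Its log2 signal was 13.77, 14.11 and 14.15 in the congenic rats against 13.76, 13.82 and 13.56 in S1, S2 and S3, with C2 and C3 above the other 4 rats. Mx2 was the only one of the 9 whose mean was higher in the congenic rats, by 0.30 ± 0.19 log2 units (SE, limma adjusted p = 0.496). The fold change of Mx2 barely moved without S2 (0.35 ± 0.19, limma adjusted p = 0.213).

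Isg15, a ubiquitin-like protein that is conjugated to other proteins, was at a log2 signal of 7.91, 8.68 and 8.31 in the congenic rats against 8.44, 8.46 and 8.72 in S1, S2 and S3. The congenic rats spanned 0.77 log2 units and the S rats 0.28, the reverse of Stat2 and Mx1. Isg15 had a log2 fold change of -0.24 ± 0.24 (SE, limma adjusted p = 0.642), and S1 lay slightly below S2. The fold change of Isg15 was -0.04 without C1, -0.43 without C2 and -0.28 ± 0.26 without S2 (limma adjusted p = 0.469).

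Oas1a, a sensor of double-stranded RNA that activates RNase L, was at a log2 signal of 6.48, 6.27 and 6.95 in the congenic rats against 6.63, 6.38 and 6.85 in S1, S2 and S3. The strains were interleaved, and the log2 fold change was -0.05 ± 0.25 (SE, limma adjusted p = 0.924). Its sign turned positive when C2 or S3 was left out.

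Ifit3, a member of the tetratricopeptide antiviral family, was at 6.73, 7.37 and 6.58 in the congenic rats against 7.12, 7.53 and 7.75 in S1, S2 and S3. Here S2 was above S1, and only C2 among the congenic rats reached the S range. Its log2 fold change was -0.57 ± 0.29 (SE, limma adjusted p = 0.423), and leaving out S2 gave a similar value of -0.54 ± 0.32 (limma adjusted p = 0.259). The ISRE-bearing promoters shown above therefore belong to genes with both kinds of pattern: Irf7 has the step in S1 and S3, and Oas1a and Ifit3 lack it.

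Irf1, an immediate early factor of the interferon response, was at a log2 signal of 11.81, 11.65 and 11.62 in the congenic rats against 12.70, 11.49 and 12.27 in S1, S2 and S3 on its brighter probe. S1 and S3 were highest and S2 lowest, the order of Stat2. Irf1 had a log2 fold change of -0.46 ± 0.32 (SE, limma adjusted p = 0.523) with all rats and -0.79 ± 0.19 (limma adjusted p = 0.0389) without S2. The dimmer Irf1 probe read 9.07, 8.82 and 8.46 in the congenic rats against 9.43, 8.63 and 9.19 in S1, S2 and S3. It gave smaller differences, -0.30 ± 0.28 with all rats (limma adjusted p = 0.611) and -0.53 without S2 (limma adjusted p = 0.144), so that the Irf1 result without S2 held on the brighter probe alone. Irf1 lies on chromosome 10, the chromosome of the congenic segment. The paper names Rffl as the only protein-coding gene of that segment. By that account Irf1 lies outside the segment, and an effect of the segment on Irf1 was not tested.

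**Figure D2:**
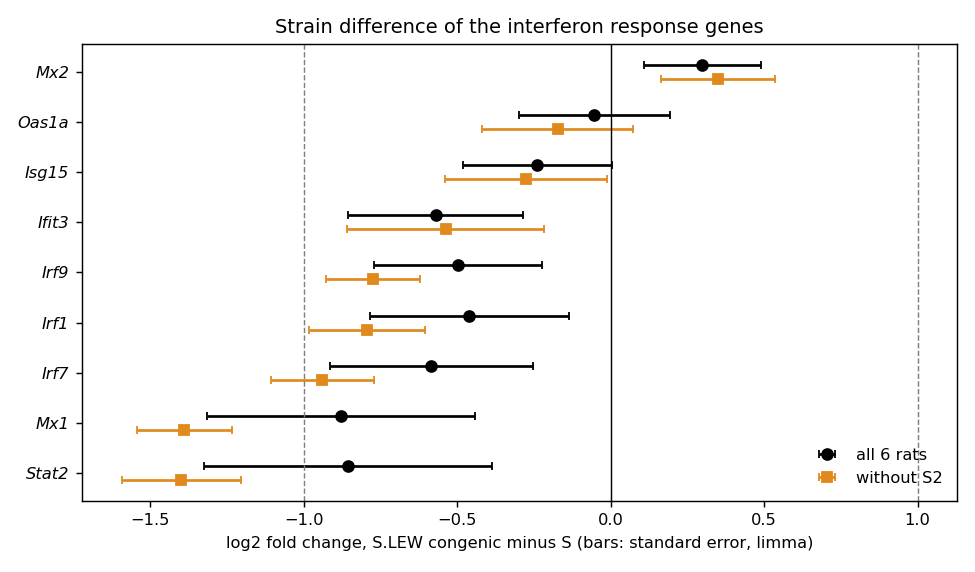
Log2 fold change of each gene, S.LEW congenic minus S (horizontal axis; bars are standard errors from limma), with all 6 rats (black circles) and without S2 (orange squares), and dashed lines at 2-fold. With all rats every gene lies within the 2-fold lines, and without S2 only Stat2 (-1.40) and Mx1 (-1.39) lie beyond them.

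As a description of the sets so formed, the congenic rats of the set of 5 spanned 0.07 to 0.19 log2 units and the S rats 0.94 to 1.87. Irf1 is taken here on its brighter probe, while on the dimmer one the congenic rats spanned 0.61 and the S rats 0.81. In the other 4 genes, the congenic rats spanned 0.37 to 0.79 and the S rats 0.25 to 0.63. The median log2 fold change of the 9 was -0.50, and -0.77 without S2, against 0.01 and 0.06 over all probes. The 5 genes of 9 at an adjusted p under 0.05 without S2, all lower in the congenic rats, compare with the 10.6% of all probes that were lower at that threshold. The fit without S2 leaves 2 S rats, rests on S1 and S3, and was chosen on these data, so that it is no test of the strains. With S1 left out in place of S2, the differences of the 5 were smaller, at -0.46 for Stat2, -0.30 for Irf9, -0.32 for Irf7, -0.56 for Mx1 and -0.19 for Irf1. By the scan identifier of the arrays, taken here as the slide, C1 shared a slide with the 3 S rats, while C2 and C3 were on another. No slide label was read. With the slide as a block, which reduces the strain comparison to C1 against the S rats of slide 1, the log2 fold change was -0.91 for Stat2, -0.83 for Mx1, -0.73 for Ifit3, -0.63 for Isg15 and 0.06 for Mx2, and those of Isg15, Oas1a (-0.14) and Mx2 moved by more than 1.5 times.

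Of the main ligands, Ifng and Ifnb1 were at or near background. Ifng, the gene of interferon-gamma, did not rise well above background in any rat, with log2 signals on the normalized scanner values of 2.50, 2.95 and 2.75 in the congenic and 2.52, 2.43 and 2.47 in the S rats. Ifnb1, the gene of interferon-beta, was well above background on the arrays of S1 and S3 alone, but at only 3.98 and 3.70, beside 4.38 in C1, where it was not. The interferon-alpha genes Ifna4 and Ifna5 were the only ligands of 12 listed with a tested probe. Ifna4 was at 7.82, 7.41 and 7.50 in the congenic rats and at 8.00, 7.96 and 7.95 in the S rats, a strain pattern without overlap. Of all probes, 5.33% had that pattern with the congenic rats lower. The log2 fold change of Ifna4 was -0.39 ± 0.18 (SE, limma adjusted p = 0.408). In Ifna4, S2 was level with the other S rats. Ifna5 had a log2 fold change of -0.29 ± 0.51 (limma adjusted p = 0.795), which turned to 0.12 without S2. The interferon-alpha genes are near-identical copies, so that a probe may read more than 1 of them.

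Of the receptor chains and kinases, 6 of 9 listed genes were tested, all 6 had lower congenic means, as had 48.7% of all probes, and 1 was called, beside 2.34% of all probes called lower. That gene was Jak1, the kinase shared by both interferon pathways, with log2 signals of 11.79, 11.90 and 11.95 in the congenic rats against 13.45, 12.12 and 13.14 in S1, S2 and S3. Jak1 did not overlap between the strains, as for 5.33% of all probes with the congenic rats lower. S2 was nevertheless much closer to the congenic rats than to S1 and S3. The log2 fold change of Jak1 was -1.02 ± 0.36 (SE, limma adjusted p = 0.348) and without S2 -1.42 ± 0.17 (limma adjusted p = 0.00868). Ifnar1 was at 7.18, 7.65 and 7.64 in the congenic rats against 8.71, 7.40 and 8.19 in S1, S2 and S3, a log2 fold change of -0.61 ± 0.36 (limma adjusted p = 0.471). For the interferon-gamma receptor, the log2 fold changes were -0.17 ± 0.30 for Ifngr1 and -0.11 ± 0.26 for Ifngr2, and that of Jak2, its second kinase, was -0.54 ± 0.28. Without S2 they were -0.49 ± 0.15 for Ifngr1, -0.36 ± 0.16 for Ifngr2 (limma adjusted p = 0.0688 and 0.149) and -0.83 ± 0.16 for Jak2, and those of Ifngr1 and Ifngr2 turned positive, to 0.03 and 0.07, without S1. The difference of Ifnar1 was -0.96 ± 0.25 without S2. Without S2, Jak1, Jak2 and Ifnar1 were lower at an adjusted p under 0.05. Ifnar2 and Tyk2 were not matched to a probe.

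Irf5, a factor of myeloid and B cells downstream of Toll-like receptors, was at 6.97, 7.13 and 7.15 in the congenic rats and at 10.69, 6.85 and 10.13 in S1, S2 and S3, with a log2 fold change of -2.14 ± 0.96 (limma adjusted p = 0.399), and -3.32 ± 0.21 without S2 (limma adjusted p = 0.00170). None of the 5 tested STAT and IRF factors outside the 9 genes was called with all rats. At an unadjusted p under 0.05, 1 of the 5 (Stat3) was lower, against 4.40% of all probes. Stat4 and Irf4, factors typical of lymphocytes and named after their values were seen, were well above background in S1 and S3 only, and taking background as the level of the congenic rats the S mean was at least 11.8-fold higher for Stat4 and at least 4.01-fold higher for Irf4. These bounds rest on S1 and S3, since S2 was not well above background either.

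The other type I targets comprised 47 listed genes, of which 35 were tested. With all rats, 24 of the 35 had lower and 11 higher congenic means, where 48.7% of all probes had lower ones, and none was called at the 2-fold rule in either direction, beside 2.34% of all probes lower. At an unadjusted p under 0.05, 4 were lower (Ifi27l2b, Adar, Sp100 and Dhx58) and 1 was higher (Isg20), all 5 named after their values were seen, which is 4 of 35 against 4.40% of all probes lower. The median log2 fold change of the 35 was -0.37, -0.70 without S2 and -0.13 without S1. Without S2, 12 of the 35 were called lower and none higher, and 17 (48.6%) were lower at an adjusted p under 0.05, against 7.19% of all probes called lower, 9.99% called higher and 10.6% lower at that adjusted p.

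The largest differences among them were in Phf11b and Ifi44l. Phf11b, a PHD finger protein gene, was at a log2 signal of 5.60, 5.08 and 5.14 in the congenic rats, where it was well above background in 2 of 3, and at 9.92, 4.83 and 9.81 in S1, S2 and S3. Ifi44l was at 5.98, 6.10 and 6.12 in the congenic rats and at 9.21, 4.96 and 8.94 in S1, S2 and S3. In both genes S2 was the lowest rat, and the log2 fold changes with all rats were -2.91 ± 1.34 and -1.63 ± 1.1 (SE; limma adjusted p = 0.404 and 0.509). Without S2 they were -4.59 ± 0.21 and -3.01 ± 0.16 (limma adjusted p = 0.000738 and 0.00110).

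Other type I targets also lacked the step, some of them from the Oas and Ifit families. Named after their values were seen, Oas1b was at 14.21, 14.31 and 14.39 in the congenic rats against 14.05, 14.35 and 14.13 in S1, S2 and S3, and Ifitm3, Ifit2 and Oas2 had log2 fold changes of 0.22, 0.09 and -0.17, each smaller than its standard error. Oasl2 and Oas1i of the Oas family had the step, with log2 fold changes without S2 of -1.19 ± 0.20 and -0.92 ± 0.24 (SE; limma adjusted p = 0.0179 and 0.0472). The type I targets were thus not uniform across the rats. S1 was the highest rat in 17 of the 35 (48.6%) and S2 the lowest in 14 (40.0%), against 28.4% and 19.5% of all probes.

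Of 39 other interferon-gamma targets, 33 were tested. With all rats 24 had lower and 9 higher congenic means, again where 48.7% of all probes had lower ones, and 1, Ciita, was called lower, beside 2.34% of all probes. Ciita, the transactivator of MHC class II genes, was at a log2 signal of 5.93, 6.40 and 6.58 in the congenic rats against 12.07, 6.27 and 11.67 in S1, S2 and S3. S2 lay inside the congenic range of Ciita, and the log2 fold change of -3.70 ± 1.5 (SE, limma adjusted p = 0.380) therefore rested on S1 and S3, being -5.57 ± 0.26 without S2 (limma adjusted p = 0.000738). The calls of Ciita, Jak1 and Sting1 held without S2 and were each lost when any 1 of the other 5 rats was left out. Cybb, the NADPH oxidase subunit of phagocytes, was at 6.18, 6.53 and 6.95 in the congenic rats against 10.41, 6.15 and 9.97 in S1, S2 and S3, a log2 fold change of -2.30 ± 1.09 (limma adjusted p = 0.410), and -3.64 ± 0.28 without S2 (limma adjusted p = 0.00267).

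The median log2 fold change of the 33 interferon-gamma targets was -0.42, -0.81 without S2 and -0.20 without S1. Without S2, 15 were called lower and none higher, and 18 (54.5%) were lower at an adjusted p under 0.05, beside the same shares of all probes (7.19% called lower, 9.99% called higher and 10.6% lower at the adjusted p). S1 was the highest rat in 24 of the 33 (72.7%) and S2 the lowest in 22 (66.7%), against 28.4% and 19.5% of all probes. The antigen processing genes of this list (named after their values were seen) were Psmb8, Psmb9, Psmb10, Psme1, Psme2, Tap1, Tap2, Tapbp and B2m. All 9 had S1 highest and S3 next, and S2 was the lowest rat except in Tapbp, where C3 was, and in B2m, where C2 was. The strain means of Psme2 were nearly level, with a log2 fold change of 0.02 ± 0.28. Tap1 was at 7.38, 7.19 and 6.73 in the congenic rats against 9.55, 6.34 and 8.79 in S1, S2 and S3. The guanylate-binding proteins Gbp2 and Gbp5, chosen in the same way, had smaller log2 fold changes of -0.50 ± 0.26 for Gbp2 and -0.39 ± 0.37 for the brighter probe of Gbp5 (-0.69 ± 0.22 and -0.73 ± 0.29 without S2). The probes of Gbp5 disagreed, since the dimmer one had a log2 fold change of -1.26 ± 0.46 (limma adjusted p = 0.358) and was called lower. The list was not uniform, and some targets had higher congenic means. Among these, named after their values were seen, Cxcl11, Casp1, Gch1 and Nos2 had log2 fold changes of 1.11 ± 0.66, 0.72 ± 0.67, 0.38 ± 0.19 and 0.37 ± 0.25. Without S2 they were 0.48, -0.07, 0.33 and 0.55. Gch1 did not overlap between the strains, as for 12.4% of all probes with the congenic rats higher.

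**Figure D3:**
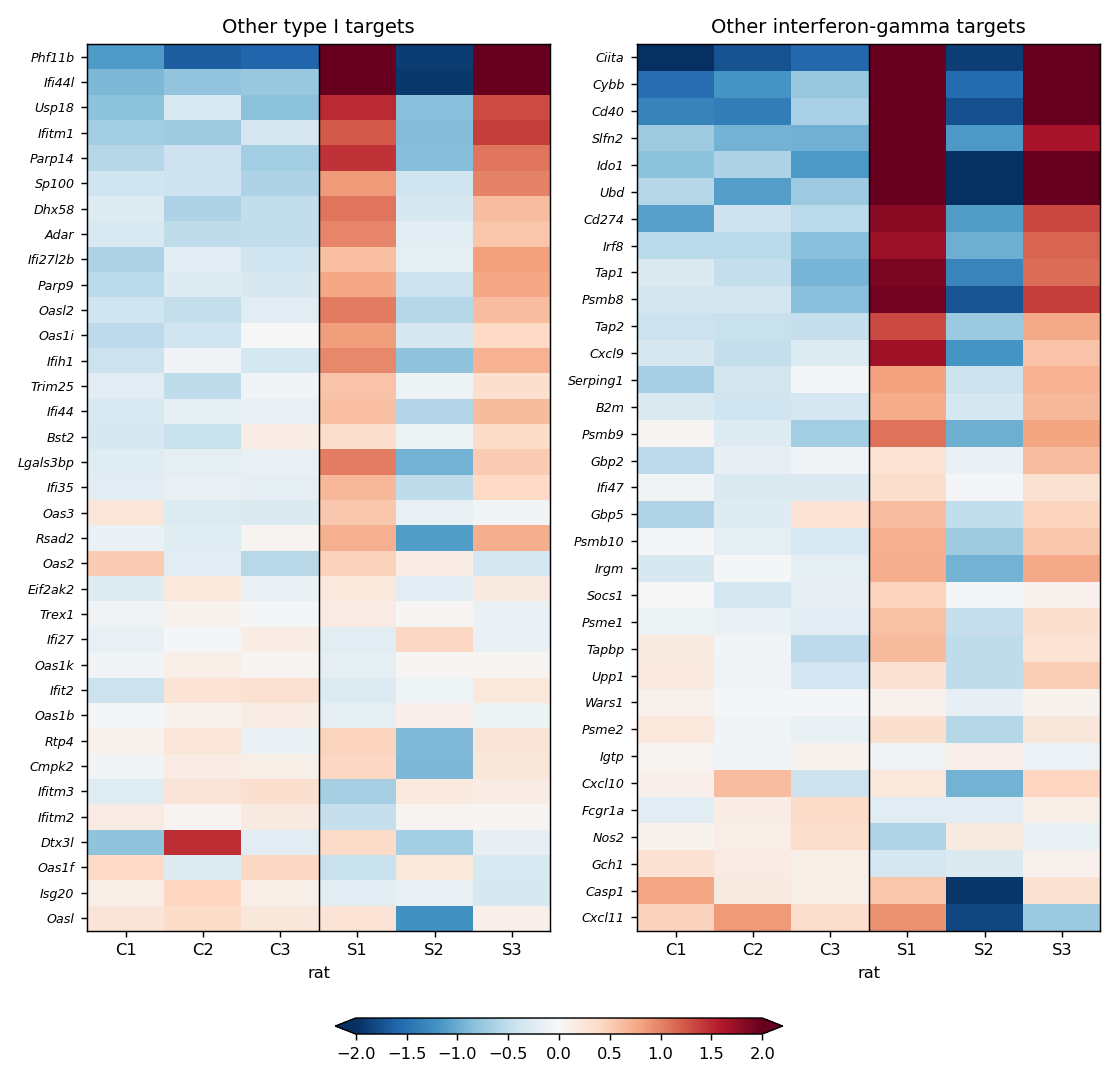
Log2 signal of each tested target gene minus its own mean over the 6 rats (color, from -2 in blue to 2 in red, with values beyond shown in the end colors), with rats in columns and genes in rows ordered by log2 fold change from most negative at the top. The left panel shows the 35 other type I targets and the right panel the 33 other interferon-gamma targets. S1 and S3 are red and the other 4 rats blue or pale in the upper rows of both panels, and S2 is the bluest column in many rows of the right panel.

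The type I and interferon-gamma targets were compared by these medians and by their mean level in each rat, after each gene was centred on its mean over the 6 rats. The median log2 fold changes differed by 0.05 with all rats, and by 0.02 to 0.11 when each rat was left out. The mean centred level of the type I targets was -0.27, -0.16 and -0.19 in the congenic rats against 0.60, -0.46 and 0.48 in S1, S2 and S3. That of the interferon-gamma targets was -0.32, -0.31 and -0.36 in the congenic rats against 1.09, -0.92 and 0.82 in S1, S2 and S3. Both lists thus put the 6 rats in the same broad order, and the interferon-gamma targets had the wider spread among the S rats. The difference between the lists, type I minus interferon-gamma, was 0.05, 0.15 and 0.16 in C1, C2 and C3, -0.49 and -0.33 in S1 and S3, and 0.46 in S2. No p-value is given for these list levels, because the lists were written with earlier results of these data known.

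The promoter letters did not separate the lists cleanly either. Of the 27 other type I targets with a RefSeq window, 18 (66.7%) held an ISRE match and 5 (18.5%) a GAS match. Of the 27 other interferon-gamma targets with a window, 15 (55.6%) held an ISRE match and 9 (33.3%) a GAS match. Both shares of ISRE matches stand beside 3.92% of all promoter windows, and both shares of GAS matches beside 8.87%.

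Among the sensors and adaptors that lead to interferon production, 6 of 13 listed genes were tested. Of the 6, 1 was called lower, beside 2.34% of all probes, and none higher. That gene was Sting1, the adaptor of cytosolic DNA sensing, with log2 signals of 8.72, 9.0 and 8.86 in the congenic rats against 12.01, 8.94 and 11.82 in S1, S2 and S3. S2 lay within the congenic range of Sting1, whose log2 fold change was -2.07 ± 0.80 (SE, limma adjusted p = 0.373), and -3.06 ± 0.17 without S2 (limma adjusted p = 0.00112). Tlr3, the endosomal receptor for double-stranded RNA, ran the other way. It was at 9.79, 9.60 and 9.47 in the congenic rats and at 8.49, 9.0 and 8.54 in S1, S2 and S3. The strains did not overlap, as for 12.4% of all probes with the congenic rats higher. The log2 fold change of Tlr3 was 0.94 ± 0.21 (limma adjusted p = 0.249), just under 2-fold, and 1.1 ± 0.16 without S2 (limma adjusted p = 0.0144). The single-stranded RNA receptor Tlr7, also named after its values were seen, was well above background in S1 and S3 only, at 8.71 and 7.82 on the normalized scanner values, which puts the S mean at least 6.86-fold above the congenic rats.

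None of the 10 tested inhibitors of interferon signalling was called at the 2-fold rule, and 1 (Ptpn1) was lower at an unadjusted p under 0.05, where 2.34% of all probes were called lower and 4.40% were lower at that p. The phosphatase Ptpn6 (SHP-1), which is abundant in leukocytes, was at 9.94, 10.13 and 9.66 in the congenic rats against 13.83, 9.55 and 13.32 in S1, S2 and S3, with a log2 fold change of -2.32 ± 1.08 (SE, limma adjusted p = 0.405), and -3.67 ± 0.23 without S2 (limma adjusted p = 0.00170). Ptpn1 (PTP1B), a phosphatase of Jak2 and Tyk2, was at 10.85, 11.02 and 11.17 in the congenic rats against 12.40, 11.26 and 12.18 in S1, S2 and S3. The strains did not overlap for Ptpn1, as for 5.33% of all probes with the congenic rats lower. The log2 fold change of Ptpn1 was -0.93 ± 0.32 (limma adjusted p = 0.348), and -1.28 ± 0.17 without S2 (limma adjusted p = 0.0118).

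Several T cell and B cell markers were high in the same rats. Of 9 T cell markers 6 were tested, all 6 had lower congenic means, and their mean centred level was -0.93, -1.11 and -1.04 in the congenic rats against 2.13, -1.29 and 2.23 in S1, S2 and S3. The defining T cell gene Cd3e was not in the tested table, being well above background in S1 and S3 only, at 9.78 and 9.93 against 2.18 in S2. The B cell marker Cd22 was at a log2 signal of 4.15, 2.62 and 5.69 in the congenic rats against 11.16, 3.69 and 10.26 in S1, S2 and S3, and was well above background in 1 of 3 congenic and 2 of 3 S rats. The B cell markers Cd79b and Blk were well above background in S1 and S3 only. The mean centred level of the 3 tested NK and cytotoxic lymphocyte markers did not have the step. It was -0.47, -0.39 and 0.49 in the congenic rats against -0.22, 0.08 and 0.51 in S1, S2 and S3. Of the 3, Nkg7 alone had S1 and S3 highest, at 6.34 and 6.61 against 5.46 to 5.94 in the other rats, while Gzmb and Klrb1a did not. Prf1, Klrd1 and Ncr1 of the same list were outside the tested table and well above background in S1 and S3 only, Prf1 at 8.86 and 9.64.

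The other markers were less of a piece. The 6 macrophage and monocyte markers had a mean centred level of -0.42 to 0.04 in the congenic rats against 0.45, -0.57 and 0.56 in S1, S2 and S3. That level averaged 3 markers with lower congenic means (Lyz2, Csf1r and Cd68) and 3 with higher ones (Cd163, Cd14 and Adgre1). The largest difference in size was that of Lyz2, with a log2 fold change of -2.21 ± 1.03 (SE, limma adjusted p = 0.405). Cd163, a scavenger receptor of resident macrophages, was called higher in the congenic rats, with a log2 fold change of 1.85 ± 0.51 (SE, limma adjusted p = 0.283). Csf1r, the receptor of macrophage colony-stimulating factor, was called lower on the brighter of its probes, with a log2 fold change of -1.42 ± 0.47 (limma adjusted p = 0.336), and not on the other, at -0.25 ± 0.39. The 3 tested plasmacytoid dendritic cell markers were at a mean centred level of 1.09 in S1, 0.91 in S3 and -0.45 in S2, with the congenic rats from -0.61 to -0.46. That level rested mainly on Spib, also a B cell factor, at 13.59 and 12.85 in S1 and S3 against 8.26 to 9.59 in the other rats. Tcf4 had a smaller step, with a log2 fold change of -0.55 ± 0.26. Il3ra went the other way and was lowest in S1 and S3, at 9.06 and 9.11. The 8 tested colon epithelium markers, among them Epcam, Vil1 and Lgals4, were high on all arrays, as the tissue label requires, and all 8 had higher congenic means, with a mean centred level of 0.59, 0.50 and 0.10 in the congenic rats, against -0.58, -0.16 and -0.45 in S1, S2 and S3. The 5 smooth muscle markers were at -1.69 in S1 and at -0.50 in S3, with the other 4 rats from 0.38 to 0.78. The part of these cell types in the differences of the interferon genes was not tested.

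**Figure D4:**
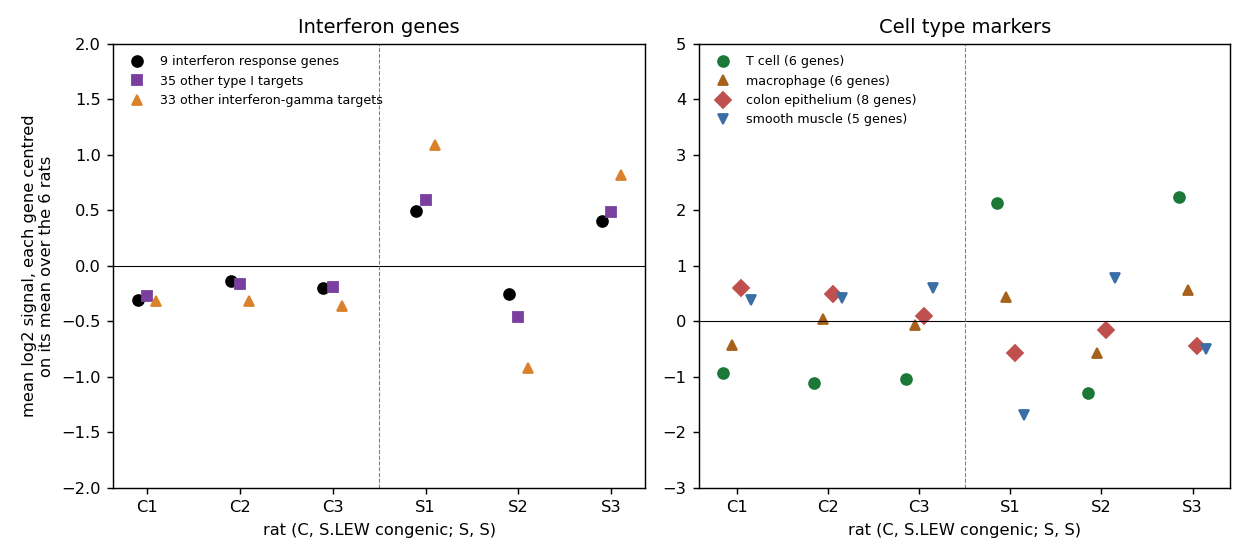
Mean log2 signal of each gene list in each rat, after each gene was centred on its mean over the 6 rats (vertical axis; the panels have different scales), with the interferon genes on the left and tested cell type markers on the right. Each symbol is the mean of 1 list in 1 rat. S1 and S3 are above 0 and S2 is below 0 for the 9 interferon response genes, both target lists, and the T cell and macrophage markers, and S1 and S3 are below 0 for the epithelial and smooth muscle markers. The macrophage mean averages 3 markers with lower and 3 with higher congenic means.

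The genes outside all lists whose centred profile over the 6 arrays was closest to the mean profile of the 6 type I targets among the 9 genes were Tmem185a, Zfp52, Enoph1, Daxx and Yeats4, of 12279 genes ranked. Their root mean square differences from that profile were between 0.029 and 0.043 log2 units. Daxx, a histone chaperone of nuclear bodies, was at 9.09, 9.38 and 9.35 in the congenic rats against 9.80, 9.27 and 9.85 in S1, S2 and S3. The mean profile itself was flatter than Stat2 or Mx1, at -0.31, -0.05 and -0.14 in the congenic rats against 0.30, -0.14 and 0.35 in S1, S2 and S3, since it averaged genes with and without the step. The likeness is over 6 arrays and is a description.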

How the data were processed

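Colon RNA of each rat was labelled with Cy3, hybridized to an Agilent rat 4x44K array and scanned, and the images were processed with Agilent Feature Extraction 11.0.1.1. The deposited scanner files hold the background-corrected intensity of each spot, before any normalization between arrays. The deposited log2 values were quantile-normalized by the authors in GeneSpring and restricted to probes detected in at least 3 of 6 samples, 23997 probes in all. All results use these log2 values unless the normalized scanner values are named, which were rebuilt from the intensities of unflagged spots by quantile normalization. On the 6 arrays the members differed by at most 0.00155 log2 units between both sources.

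The accession of a probe was looked up among RefSeq genes (GRCr8), and 18005 of 30367 probes found one of 15168 genes. Gene coordinates of the array's own build are not given. For a gene with several probes, the one with the highest mean signal was used. Strains were compared with limma 3.58.1 (lmFit and eBayes, no covariates) in R 4.3.3, with Benjamini-Hochberg adjustment over all probes tested. The fit was also run on simulated data in which every array had the spread of the congenic arrays. The wider spread of the S arrays and an array like S2 were not simulated. Exact permutation tests of single members are two-sided over 20 arrangements. For a probe not well above background in any rat of a strain, a bound is given: the mean of the brighter strain over that of the dimmer one, whose arrays each count at no less than their lowest signal well above background.

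The members and all gene lists were chosen with earlier results of these data known. Beside the members and the main ligands, receptors and kinases, the genes named were, per list, up to 4 with the largest change among those called, or the 2 with the largest change where fewer than 2 were called, and the 5 genes of most similar profile. Genes named outside this rule are marked in the text. Some genes that the rule names are not reported here. Cell type markers were named where they bear on these results.

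Alternatives were the rebuilt scanner values, scaling to the 75th percentile, other filters on dim probes, the methods' t-test, a block for the replicate number or for the slide, the mean over the probes of a gene, and each rat left out in turn. Background correction of the median signal by normexp, with an offset of 50, was added after the data were seen, because the scanner files hold no mean signal. Rats of the same number did not deviate together from their strain means (correlations of -0.0156, -0.130 and -0.0609 over all probes). With so few rats this cannot exclude a pairing by cage, and whether the numbers follow the cages is not given. Precision is limited by the 6 arrays.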

Additional observations from a re-analysis of the deposited data

Results flagged for a closer look

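A signal outside the tested table was present for Ifit1, a type I target of the same family as Ifit3. Its probe was well above background on the array of C2 only, where the normalized scanner log2 signal was 7.0479. It read 2.29 and 2.31 in C1 and C3 and between 2.18 and 2.45 in the S rats. Taking background as the level of the S rats, the congenic mean was at least 2.32-fold higher, a bound that rests on C2 alone. In the same rat Ifit3 was at 7.37, the highest of the congenic rats. Ifit3 was higher still in S2 (7.53) and S3 (7.75), where Ifit1 read 2.25 and 2.45.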

How the results depend on the processing

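Over the members, both target lists and their medians, 161 counts and medians stayed under the alternatives and 19 moved. A count stayed if it was within 1.5 times the count reported. A median, or the difference of the medians, stayed if it was within 1 SD of the mean list level, or of the level difference, between rats of a strain. That SD was wide, since type I medians of -0.702 and -0.132 both counted as having stayed, and many of the counts were 0. The 161 are therefore no measure of stability. The medians ran from -0.702 to -0.132 for the type I and from -0.809 to -0.200 for the interferon-gamma targets over the rats left out, the weakest being those without S1. Leaving out each rat in turn gave 0 to 2 members lower at the 2-fold rule and 0 to 5 at an adjusted p under 0.05, the highest values being those without S2. For the other type I targets the ranges were 0 to 12 lower at the 2-fold rule and 0 to 17 at an adjusted p under 0.05. For the other interferon-gamma targets they were 0 to 15 lower, 0 to 1 higher and 0 to 18 at an adjusted p under 0.05, again highest without S2 except for the 1 higher, which came without S1. Ciita was the interferon-gamma target called lower with all rats, and none was called lower without C1, C2, C3, S1 or S3.

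Scaling to the 75th percentile gave 2 type I and 2 interferon-gamma targets lower. No interferon-gamma target (0) was lower with no filter, by the methods' t-test or with the slide as a block. The deviations of rats of the same replicate number were uncorrelated or weakly negative, which with so few rats cannot exclude a pairing. With the replicate number as a block, 1 type I and 2 interferon-gamma targets were lower and the members stayed at 0. The log2 fold change of Oas1a, the only member to change sign, ran from -0.2465 to 0.0951 over the rats left out, with 0.0609 without S3 and 0.0951 without C2. Without S2, Stat2 and Mx1 passed the 2-fold rule. Of all calls at the 2-fold rule, 58.0% were higher in the congenic rats, against 47.7% with the 75th percentile, 48.7% with normexp, 66.4% with detection on all 6 arrays, 74.3% by the methods' t-test and 70.8% with the slide as a block. The number of probes at an adjusted p under 0.05 was 0 with all rats, 1 with the 75th percentile, 41 without S1 and 5553 without S2. Normexp on the mean signal was not run. The cause of these changes was not tested; signal over background limits what can be said of probes detected in few rats, such as Ifit1 and Ifnb1.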
